A study of Mus musculus with 6 samples.

Results

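Centrosome and augmin genes were followed in mouse embryonic stem (ES) cells. The group held 30 genes chosen by their function, and all 30 were found among the 18193 genes with a probe set of a single symbol on the Affymetrix array. It comprised 9 centriole duplication genes, 4 genes of the centriole body, 8 genes of the pericentriolar material and of gamma-tubulin, the midbody gene Cep55 and the 8 augmin subunits. A gene was read from its probe set with the highest mean over the 6 arrays. RNA came from 3 haploid and 3 diploid ES cell samples, 1 array each, all grown in 2i medium, which inhibits the kinases MEK and GSK3, and taken 2 days after passaging. Haploid replicates 1 and 2 were lines HAP1 at passage 24 and HAP2 at passage 21, both of F1 CBAxB6 background. Haploid replicate 3 was line HTG1 at passage 11, labelled as mixed transgenic with no further detail. Diploid replicates 1 and 2 were male cells of 129Sv background and replicate 3 male cells of 129 background, with no line names, so strain and ploidy cannot be told apart. The labels call the samples of both groups biological replicates, but do not say whether the diploid ones were separate lines, so p-values measure the spread between these samples, which may be technical. The labels give no share of cells that had kept a haploid genome. The values were log2 values made with RMA, which puts all arrays on a common distribution, so every difference is relative to the bulk of genes. A lower value in such bulk samples can mean fewer cells with the transcript or less of it per cell, which cannot be told apart.

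The centrosome is the main microtubule-organising centre of an animal cell. A pair of centrioles at its core is copied in each cell cycle, under the kinase Plk4 and the cartwheel protein Sass6, so that each pole of the mitotic spindle receives a centrosome. The surrounding pericentriolar material anchors gamma-tubulin rings, which nucleate microtubules. Augmin, a complex of 8 subunits, binds existing spindle microtubules and recruits gamma-tubulin to them, so that new microtubules branch from old ones. Haploid mammalian ES cells are known to become diploid in culture, and a missed cell division is among the routes discussed for this.

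Of the 30 genes, 4 were higher and 5 lower in the haploid arrays at an adjusted p under 0.05 (limma, Benjamini-Hochberg over all genes). The background was 7.92% higher and 6.96% lower over all genes, or 14.9% in either direction. Genes above the median level had 12.7% higher and 9.21% lower, or 21.9% in either direction, and 29 of the 30 genes lay above that level. Of the 30 genes 9 were called in all. Those that rose were the centrin gene Cetn2, the ninein-like gene Ninl and the augmin genes Haus7 and Haus6, and those that fell were the duplication genes Cep135, Sass6, Cntrob and Plk4 and the scaffold gene Cdk5rap2. Their folds lay between 1.33 and 2.68. The median difference of the 30 genes was -0.16 (log2), beside -0.03 over all genes and 0.04 over genes above the median level, and 21 differences were negative. The haploid and diploid values did not overlap for 14 of the 30 genes (46.7%), with the haploid arrays higher in 5 and lower in 9. Over all genes the shares were 17.7% higher and 20.2% lower, together 37.9%. Over genes above the median level they were 26.2% and 21.4%, together 47.5%, so the share of the 30 genes is near its background. The calls were sensitive to single arrays: the number higher was 1 and the number lower was 1 without diploid replicate 2 and without diploid replicate 3, and 2 and 0 without haploid replicate 2. Without haploid replicate 3 they were 3 and 2, and without diploid replicate 1 they were 2 and 5.

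**Figure D1:**
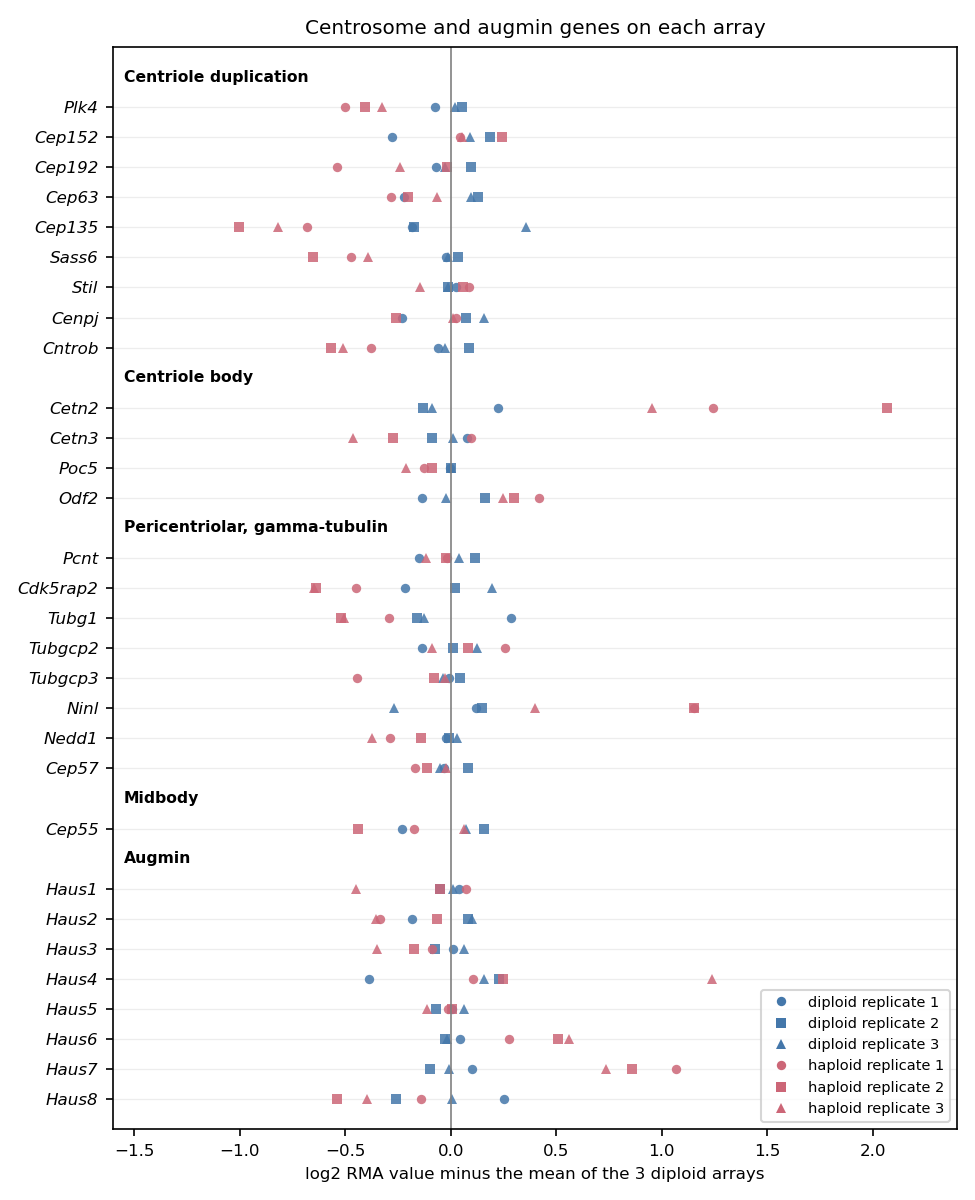
Log2 value of each of the 30 genes on each array minus the mean of the 3 diploid arrays of that gene (horizontal axis), grouped by function; blue marks diploid and red marks haploid arrays, and the shape gives the replicate. Cetn2, Ninl, Haus6 and Haus7 have their haploid points to the right of all diploid points, and Plk4, Cep135, Sass6, Cntrob and Cdk5rap2 to the left.

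Some measures over the whole arrays moved with the groups and others did not. The median values of the arrays, from 6.31 to 6.33, overlapped between the groups. Diploid replicates 2 and 3 were the closest pair (Pearson's r across genes 0.9964). The beta-actin control probe set at the 3' end exceeded that at the 5' end by 0.34 to 0.46 in the diploid and by 0.18 to 0.24 in the haploid arrays. The same difference for Gapdh overlapped between the groups, at -0.093 to -0.008 in the diploid and -0.086 to -0.059 in the haploid arrays. Of 9 fibroblast markers 1 fell in limma (11.1%), Col1a2 by 2.62 (log2), beside 6.96% of all genes lower. At an unadjusted p under 0.05, 6 of the 9 were lower, beside 2873 of all 18193 genes. The mean level of this list was 6.005 to 7.0 in the diploid and 5.345 to 5.561 in the haploid arrays, and the mean of Lum lay below every array's lower quartile (4.80 or more) in both groups, though its value in diploid replicate 1 was 4.92. All 8 ES cell markers lay above the median level, and 3 rose (37.5%), beside 12.7% of genes above that level. These were Klf4, Nanog and Pou5f1, by 0.68, 0.47 and 0.40 (log2). The other 5 did not pass, among them Sox2 at 0.09 and Zfp42 at -0.25. Klf4 passed in every omission of an array, Nanog in 2 of 6 and Pou5f1 in 1 of 6 (limma adjusted p up to 0.0906 and 0.0874). No marker of 7 for endoderm or 6 for trophoblast passed in limma. At an unadjusted p under 0.05, 1 endoderm marker was lower and 1 trophoblast marker higher, beside 2873 lower and 2799 higher of all 18193 genes. Of 6 neural markers 1 fell (16.7%), Sox1 by 1.32, beside 6.96% of all genes lower. Sox1 did not pass with diploid replicate 3 or haploid replicate 2 left out (limma adjusted p = 0.0621 and 0.0563). The part of these measures in the results below was not tested.

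Genes that start the copying of a centriole were lower or did not pass. Of 9 duplication genes 4 fell and none rose in limma, at an unadjusted p under 0.05 as well, beside 6.96% of all genes lower. Of genes above the median level, where 8 of the 9 lay, 9.21% were lower. Their mean level, centred over the 6 arrays, was -0.147 ± 0.022 (log2, SD, n = 3) in the haploid and 0.147 ± 0.108 in the diploid arrays, a difference of -0.29 that was not tested. Diploid replicate 1 was the lowest diploid array, at 0.023, and still above all 3 haploid arrays.

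Promoter windows are shown for the 3 duplication genes that fell and have an entry in the RefSeq promoter table (GRCm38.p6), because these genes moved in the same direction. A window runs from 250 bases before to 50 after a transcript's start, read along the gene's strand. Capitals mark matches, on either strand, to TTTGAA (a core of the cell cycle homology region found in promoters of cell cycle genes), CCAAT (the letters that the factor NF-Y binds) or GCGGGAA (a core of sites of E2F factors). The window of Plk4 lies on the plus strand at chr3:40799701-40800000, that of Sass6 on the plus strand at chr3:116594708-116595007 and that of Cep135 on the plus strand at chr5:76588449-76588748.
Plk4: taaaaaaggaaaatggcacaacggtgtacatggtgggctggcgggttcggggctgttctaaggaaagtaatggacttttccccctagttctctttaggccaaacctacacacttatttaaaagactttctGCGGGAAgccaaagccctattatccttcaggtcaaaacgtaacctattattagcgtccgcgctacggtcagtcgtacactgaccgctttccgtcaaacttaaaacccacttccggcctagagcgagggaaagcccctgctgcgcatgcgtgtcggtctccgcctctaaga
Sass6: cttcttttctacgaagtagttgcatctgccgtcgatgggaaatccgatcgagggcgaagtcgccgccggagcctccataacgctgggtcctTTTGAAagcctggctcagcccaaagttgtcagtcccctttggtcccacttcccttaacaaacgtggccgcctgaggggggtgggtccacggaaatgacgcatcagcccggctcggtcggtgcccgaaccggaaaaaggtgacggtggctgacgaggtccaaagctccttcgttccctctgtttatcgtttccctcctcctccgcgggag
Cep135: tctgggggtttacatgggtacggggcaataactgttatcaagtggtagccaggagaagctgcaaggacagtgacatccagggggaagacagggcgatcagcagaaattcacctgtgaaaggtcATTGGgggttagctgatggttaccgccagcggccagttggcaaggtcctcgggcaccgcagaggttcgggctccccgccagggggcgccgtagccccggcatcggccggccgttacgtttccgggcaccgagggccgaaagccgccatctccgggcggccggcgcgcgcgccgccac
Plk4 has a GCGGGAA that begins 120 bases before the start, Sass6 a TTTGAA that begins 159 bases before it, and Cep135 the reverse complement of CCAAT 127 bases before it. The 3 windows therefore share none of these motifs.

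Plk4, the kinase that triggers centriole duplication, was at 10.74, 10.84 and 10.92 (log2) in haploid replicates 1 to 3 and at 11.17, 11.30 and 11.26 in diploid replicates 1 to 3. All 3 haploid values were below all 3 diploid values. The difference was -0.41 ± 0.09 (SE, n = 3 per group), 1.33-fold (limma adjusted p = 0.0305). The call of Plk4 was lost on omission of diploid replicate 2 or 3 and of haploid replicate 1 or 2 (limma adjusted p = 0.0753 to 0.105). Its other probe sets gave larger differences. The second was lower by 0.59 ± 0.09, and the third, the dimmest, fell by 1.52 ± 0.09, with limma adjusted p of 0.0101 and 0.000768 over all probe sets. On the third probe set the haploid arrays stood at 7.69, 7.64 and 7.57 and the diploid arrays at 9.15, 9.23 and 9.09, so the difference within this gene ran from -0.41 to -1.52. With the mean of the 3 probe sets the difference was -0.84. Which transcripts each probe set reads was not analysed here.

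Sass6, the hub of the cartwheel that gives a new centriole its symmetry, was at 8.11, 7.93 and 8.19 in the haploid and at 8.56, 8.62 and 8.57 in the diploid arrays. The groups did not overlap, and the diploid arrays were within 0.06 of each other. The difference was -0.51 ± 0.10 (limma adjusted p = 0.0197). Sass6 no longer passed on omission of diploid replicate 2 or 3 and of haploid replicate 2 (limma adjusted p = 0.0606 to 0.0731). Its dimmer probe set differed by 0.11 ± 0.13 in the other direction and did not pass, and the mean of both gave -0.20 (limma adjusted p = 0.181).

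Cep135, which links the cartwheel to the centriole wall, had the largest fall among the 30 genes. It was also the dimmest of them, with a mean of 6.86 on 1 probe set, and the only one not above the median level (7.48). It was at 6.59, 6.27 and 6.46 in the haploid and at 7.09, 7.10 and 7.63 in the diploid arrays. Diploid replicate 3 stood 0.54 above the mean of the other diploid arrays. The difference was -0.83 ± 0.17 (limma adjusted p = 0.0218), and it did not pass without haploid replicate 2 or 3 (limma adjusted p = 0.0704 and 0.0504). Cntrob, the daughter-centriole protein centrobin, was at 9.10, 8.91 and 8.97 in the haploid and at 9.41, 9.56 and 9.45 in the diploid arrays, again with no overlap. It differed by -0.49 ± 0.10 (limma adjusted p = 0.0201), and its call was lost on omission of diploid replicate 2 or 3 and of haploid replicate 2 or 3 (limma adjusted p = 0.0503 to 0.0747).

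The other 5 duplication genes did not pass. Stil, the partner of Plk4 and Sass6 at the site of assembly, had the same mean of 8.84 in both groups, with a difference of 0.00 (95% confidence interval -0.23 to 0.23). Cenpj, which sets the length of centriole microtubules, differed by -0.07 (-0.40 to 0.25). The proteins that ring the parent centriole and bring Plk4 there are Cep152, Cep192 and Cep63. Cep192 was at 10.39, 10.92 and 10.69 in the haploid and at 10.86, 11.03 and 10.91 in the diploid arrays. It differed by -0.27 (-0.61 to 0.08), with overlap through haploid replicate 2, and by 0.07 when its 2 probe sets were averaged. The dimmer probe set of Cep192 had a mean of 4.47, below every array's lower quartile (4.80 or more). It stood at 6.105, 3.955 and 3.974 in the haploid and at 4.168, 4.258 and 4.371 in the diploid arrays. Cep63 differed by -0.18 (-0.48 to 0.12) and Cep152 by 0.11 (-0.23 to 0.45), or -0.03 without diploid replicate 1. These intervals include falls of the size seen for Plk4 in Cep192 and Cep63 but not in Cep152.

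The genes of the centriole body did not move together. Cetn2, which encodes a calcium-binding centrin in the centriole lumen and has a further role in DNA repair, rose, while its relative Cetn3, the centriole protein Poc5 and the appendage protein Odf2 did not pass. Beside 1 of 4 higher stands the background of 7.92% over all genes, or 12.7% over genes above the median level, where all 4 lay. The window of Cetn2, the gene with the largest change of the 30, lies on the minus strand at chrX:72918295-72918594, with the same marking.
Cetn2: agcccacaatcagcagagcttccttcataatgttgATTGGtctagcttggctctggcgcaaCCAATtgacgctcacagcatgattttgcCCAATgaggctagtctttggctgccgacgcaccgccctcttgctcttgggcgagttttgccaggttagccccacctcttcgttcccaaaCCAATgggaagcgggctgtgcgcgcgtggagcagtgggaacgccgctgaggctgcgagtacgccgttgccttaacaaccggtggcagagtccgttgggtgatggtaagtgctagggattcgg
It holds 4 matches to CCAAT or its reverse complement, which begin 215, 189, 161 and 72 bases before the start.

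Cetn2 was at 11.69, 12.52 and 11.41 in the haploid and at 10.68, 10.32 and 10.36 in the diploid arrays. The lowest haploid value was 0.73 above the highest diploid value, and haploid replicate 2 stood 0.97 above the mean of the other haploid arrays. The difference was 1.42 ± 0.28 (SE), 2.68-fold, with a limma adjusted p of 0.0187. Cetn2 did not pass without diploid replicate 2 or 3 (limma adjusted p = 0.0705 and 0.0783), and its difference was 1.10 without haploid replicate 2. The second probe set gave 1.51 ± 0.26. Cetn2 is X-linked. A male diploid cell has a single X for a pair of autosome sets and a haploid cell a single X for a single autosome set. X-linked genes above the median level were shifted upwards by a median of 0.74 (log2) against autosomal genes. The cause of this shift was not tested. With that shift subtracted Cetn2 differed by 0.68 (limma adjusted p = 0.14).

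Odf2, which builds the appendages of the older centriole, was at 12.37, 12.25 and 12.20 in the haploid and at 11.81, 12.11 and 11.93 in the diploid arrays. The groups did not overlap, yet the difference of 0.32 ± 0.11 had a limma adjusted p of 0.0963. Of its 5 probe sets 3 were above 0 and 2 below, from -0.31 to 0.40. Cetn3 was at 11.58, 11.21 and 11.02 in the haploid and at 11.56, 11.39 and 11.49 in the diploid arrays and differed by -0.21 (-0.57 to 0.15). Poc5 was lower in all 3 haploid arrays by a small amount, -0.14 (-0.35 to 0.06).

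In the pericentriolar material 1 gene rose and 1 fell of 8, or 12.5% each way, near the 12.7% higher and 9.21% lower of genes above the median level. Cdk5rap2, a scaffold that activates gamma-tubulin rings, fell, and Ninl, a relative of ninein that binds gamma-tubulin rings, rose. The mean of the 8 genes differed by -0.08 between the groups, within the spread of the arrays (SD 0.081 in the haploid and 0.028 in the diploid arrays). It was -0.033 without haploid replicate 3, -0.042 with chromosome shifts subtracted and -0.139 after another quantile normalization. The promoter window of Cdk5rap2, shown because the gene fell with the duplication genes, lies on the minus strand at chr4:70410386-70410685.
Cdk5rap2: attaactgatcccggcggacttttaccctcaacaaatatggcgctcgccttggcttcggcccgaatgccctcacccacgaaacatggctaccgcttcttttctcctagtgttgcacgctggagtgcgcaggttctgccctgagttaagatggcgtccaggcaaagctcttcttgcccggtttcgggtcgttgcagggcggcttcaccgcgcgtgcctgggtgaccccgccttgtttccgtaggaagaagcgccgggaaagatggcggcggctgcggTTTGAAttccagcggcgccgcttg
Its TTTGAA begins 27 bases after the start.

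Cdk5rap2 was at 8.52, 8.33 and 8.32 in the haploid and at 8.75, 8.99 and 9.17 in the diploid arrays. The groups did not overlap, and diploid replicate 1 lay nearest to the haploid values. The difference was -0.58 ± 0.13 (limma adjusted p = 0.0292). Its call was lost on omission of diploid replicate 2 or 3 and of haploid replicate 2 or 3 (limma adjusted p = 0.0722 to 0.0977). It was also lost when the 3 probe sets were averaged (-0.32, limma adjusted p = 0.0815), the dimmest of which had a mean of 4.29.

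Ninl was at 8.43, 8.43 and 7.67 in the haploid and at 7.40, 7.43 and 7.01 in the diploid arrays. Haploid replicate 3, the HTG1 line, stood 0.75 below the mean of HAP1 and HAP2 and nearest to the diploid values. The difference was 0.90 ± 0.23 (limma adjusted p = 0.042). Ninl passed when haploid replicate 3 was left out, at 1.15, but on none of the other 5 omissions (limma adjusted p = 0.0741 to 0.14), nor after another quantile normalization (0.0559).

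Gamma-tubulin itself, Tubg1, was at 10.23, 10.00 and 10.02 in the haploid and at 10.81, 10.36 and 10.39 in the diploid arrays. The haploid values were all lower, but diploid replicate 1 stood above the other diploid arrays, and the difference of -0.44 ± 0.15 had a limma adjusted p of 0.0885. The ring proteins Tubgcp2 and Tubgcp3 differed by 0.08 (-0.21 to 0.38) and -0.18 (-0.49 to 0.12). Nedd1, the adaptor that ties gamma-tubulin rings to augmin and to the centrosome, was at 9.07, 9.22 and 8.98 in the haploid and at 9.33, 9.35 and 9.38 in the diploid arrays. It was lower by 0.27 ± 0.10 with no overlap (limma adjusted p = 0.112), and its second probe set was lower by 0.37. Pcnt, the main pericentriolar scaffold, differed by -0.05 (-0.30 to 0.19). Cep57, a partner of Cep63 and Cep152, was at 10.36, 10.42 and 10.51 in the haploid and at 10.50, 10.61 and 10.48 in the diploid arrays. It differed by -0.10 (-0.32 to 0.12), while its dimmer probe set was lower by 0.39 ± 0.09 (limma adjusted p = 0.0423 over all probe sets). Cep55, needed at the midbody for the last cut between daughter cells, was at 11.93, 11.67 and 12.17 in the haploid and at 11.88, 12.26 and 12.18 in the diploid arrays. It overlapped between groups and differed by -0.18 (-0.57 to 0.20).

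**Figure D2:**
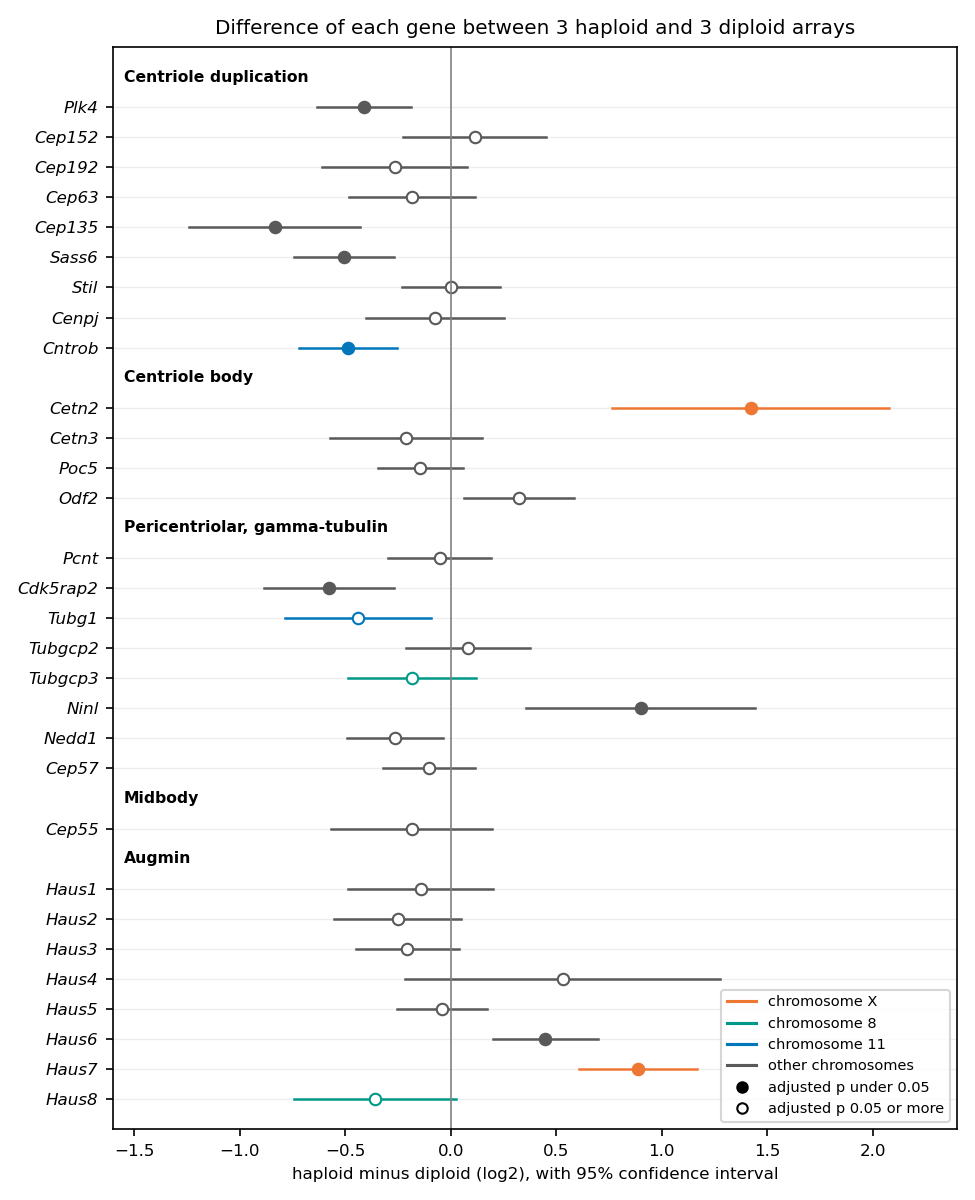
Haploid minus diploid difference (log2, horizontal axis) of each gene with its 95% confidence interval from limma, grouped by function; filled points have an adjusted p under 0.05, and the colour gives chromosome X, 8, 11 or another. The filled points of the duplication genes lie between -0.83 and -0.41, and those of augmin at 0.45 and 0.89.

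The augmin subunits, which work as a complex, did not move as a unit. Of 8 subunits Haus6 and Haus7 rose, beside the background of 7.92%, and none fell in limma, nor at an unadjusted p under 0.05. Of genes above the median level, where all 8 lay, 12.7% were higher. The mean of the 8 differed by 0.11, while the median difference was -0.09, the opposite sign, and 5 of the 8 differences were negative. The mean of the 7 subunits other than Haus7 differed by -0.003. The window of Haus7, the gene of the 30 with the lowest adjusted p, lies on the minus strand at chrX:73458980-73459279.
Haus7: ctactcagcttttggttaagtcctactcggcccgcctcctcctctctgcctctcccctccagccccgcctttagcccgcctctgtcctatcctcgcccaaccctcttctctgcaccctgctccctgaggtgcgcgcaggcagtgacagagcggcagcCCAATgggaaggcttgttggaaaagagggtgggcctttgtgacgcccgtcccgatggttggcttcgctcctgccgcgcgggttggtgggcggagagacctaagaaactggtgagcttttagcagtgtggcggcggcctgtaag
It holds a CCAAT that begins 93 bases before the start.

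Haus7 was at 11.04, 10.83 and 10.71 in the haploid and at 10.07, 9.88 and 9.96 in the diploid arrays. The groups were well apart and the difference was 0.89 ± 0.12, 1.85-fold, with a limma adjusted p of 0.00547. It was the only gene of the 30 that passed in every omission of an array (limma adjusted p = 0.00888 to 0.0321). Haus7 is X-linked, and with the X shift subtracted it differed by 0.15 (limma adjusted p = 0.417). Haus6, on chromosome 4, was at 9.69, 9.92 and 9.97 in the haploid and at 9.46, 9.39 and 9.39 in the diploid arrays. It was higher by 0.45 ± 0.11 with no overlap (limma adjusted p = 0.0333), and its dimmer probe set by 1.08 ± 0.20. The mean of both gave 0.77. Haus6 passed when haploid replicate 1 was left out but on none of the other 5 omissions (limma adjusted p = 0.0569 to 0.11).

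Haus4 was the subunit with the widest spread. It was at 10.25, 10.39 and 11.38 in the haploid and at 9.76, 10.37 and 10.30 in the diploid arrays. The HTG1 line stood 1.06 above the mean of HAP1 and HAP2, and diploid replicate 1 stood 0.58 below the other diploid arrays. The groups overlapped, the difference was 0.53 (95% confidence interval -0.21 to 1.28) with a limma adjusted p of 0.296, and without haploid replicate 3 it was 0.18. Haus1 was at 11.90, 11.78 and 11.37 in the haploid and at 11.87, 11.78 and 11.83 in the diploid arrays, with HTG1 furthest below the diploid values. Haus1 differed by -0.14 (-0.49 to 0.20). Haus3 was lower in all 3 haploid arrays by 0.21, Haus5 differed by -0.04 and Haus8 by -0.36, with limma adjusted p of 0.226, 0.796 and 0.186. Haus2 differed by -0.25 (-0.55 to 0.05) on its brightest probe set and by 0.17 when its 4 probe sets were averaged, 3 of which were above 0.

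**Figure D3:**
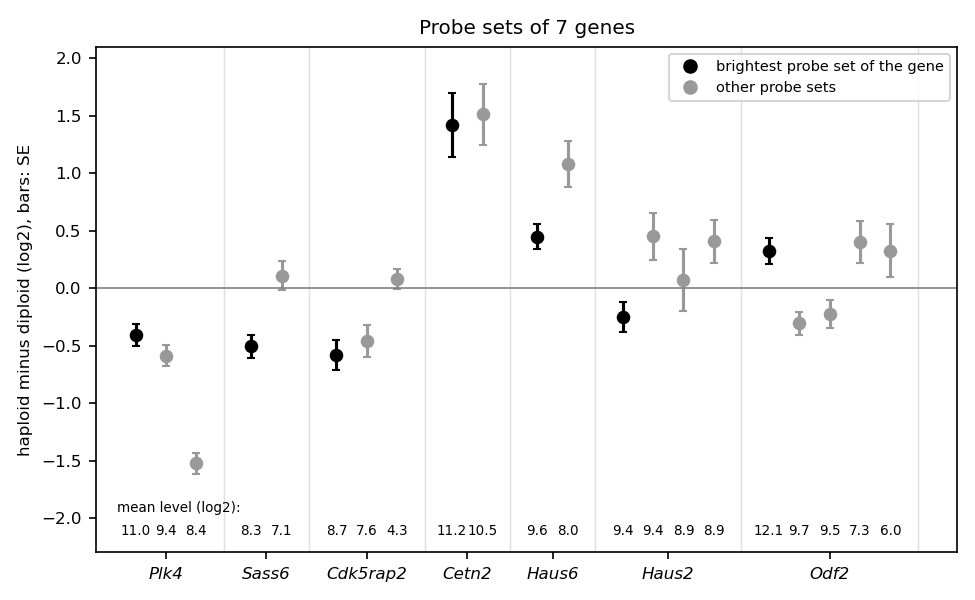
Haploid minus diploid difference (log2, vertical axis; bars are SE) of every single-symbol probe set of 7 genes, in falling order of mean level, which is printed under each point; black marks the brightest probe set. The 3 probe sets of Plk4 run from -0.41 to -1.52, while those of Haus2 and Odf2 lie on both sides of 0.

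Probe sets of a gene disagreed in sign for Sass6, Cdk5rap2, Cep192, Haus2 and Odf2 among the 14 genes that had several. In Cdk5rap2 and Cep192 the probe set of the other sign was dim, with means of 4.29 and 4.47. For Plk4, Cetn2 and Haus6, which passed, all probe sets had the same sign. The other 16 genes had a single probe set each.

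Of the 30 genes 6 lie on chromosomes with a shift of their own between the groups. Genes above the median level were shifted by a median of 0.74 on X, -0.30 on chromosome 11 and -0.35 on chromosome 8 against all autosomal genes. Cetn2 and Haus7 are X-linked, Cntrob and Tubg1 lie on chromosome 11, and Haus8 and Tubgcp3 on chromosome 8. All 6 differed in the direction of their chromosome. After subtraction of the shift none of the 6 passed: Cntrob differed by -0.19 (limma adjusted p = 0.22), Tubg1 by -0.14, Haus8 by -0.01 and Tubgcp3 by 0.16, which turned its sign. The calls were then 1 higher, Haus6, and 4 lower, Plk4, Cep135, Sass6 and Cdk5rap2, while Ninl had a limma adjusted p of 0.0511. Over all 18193 genes 1272 were then higher and 1338 lower, together 14.3%. Of the 24 genes on other chromosomes 2 were higher (8.33%) and 4 lower (16.7%) as measured, beside 7.92% and 6.96% of all genes. Genes above the median level, where 23 of the 24 lay, had 12.7% higher and 9.21% lower. Both backgrounds include genes on chromosomes X, 8 and 11.

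**Figure D4:**
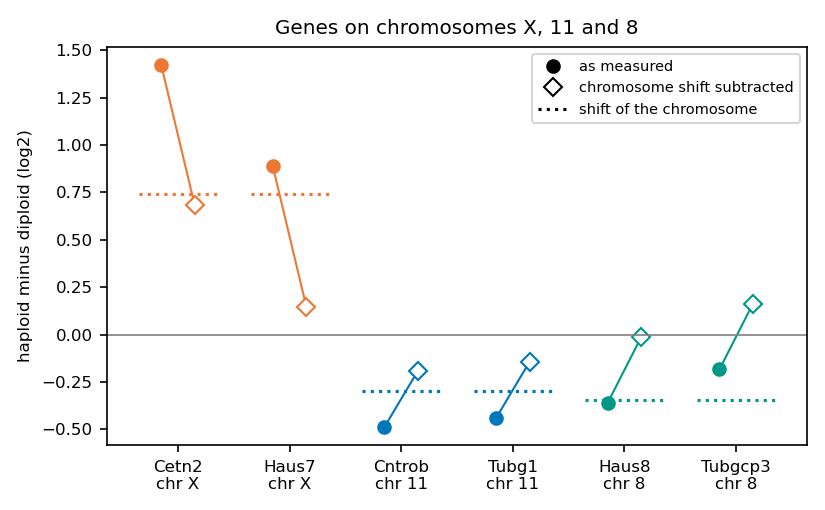
Haploid minus diploid difference (log2, vertical axis) of the 6 genes on chromosomes X, 11 and 8, as measured (filled circles) and with the chromosome's median shift subtracted (open diamonds); dotted lines give that shift. Haus7 moves from 0.89 to 0.15 and Cntrob from -0.49 to -0.19.

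The spread within a group was close to that of other genes. The median SD of the 30 genes was 0.143 in the haploid and 0.116 in the diploid arrays, beside 0.149 and 0.126 for all genes above the median level. Haploid replicate 3 was the lowest haploid array for 15 of the 30 genes and the highest for 8, and haploid replicate 1 was the highest for 15. Diploid replicate 1 was the lowest diploid array for 17. In 4 genes an array stood more than 0.5 from both others of its group: Cetn2 in HAP2, Ninl and Haus4 in HTG1, Haus4 in diploid replicate 1 and Cep135 in diploid replicate 3.

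Further centrosome genes outside the 30 were read from a pair of lists with 47 measured genes. Of these 3 rose (6.38%) and 7 fell (14.9%), with a median difference of 0.05, beside 7.92% and 6.96% of all genes. Genes above the median level, where 36 of the 47 lay, had 12.7% higher and 9.21% lower. Among 28 further centriole genes, Sclt1, a protein of the distal appendages, fell by 1.08 ± 0.13 (limma adjusted p = 0.00435), or by 0.61 when its probe sets were averaged. Cep68, part of the linker that joins the centrioles of a pair, fell by 0.97 ± 0.15, and both passed in every omission of an array. Spice1, which is needed for centriole duplication, fell by 0.72, but not on omission of diploid replicate 2 or 3 (limma adjusted p = 0.0763 and 0.0869). Ccp110, the cap that keeps centrioles from elongating, rose by 0.57, but not without diploid replicate 3 or haploid replicate 2 (limma adjusted p = 0.0554 and 0.053). The X-linked Ofd1 rose by 0.88, close to Haus7, and differed by 0.14 with the X shift subtracted. Cep295 rose by 0.58 and Cep44 fell by 0.45, but Cep295 passed without haploid replicate 3 only (limma adjusted p = 0.0531 to 0.108 without the others) and Cep44 without diploid replicate 1 only (0.0584 to 0.103). Neither passed when probe sets were averaged (0.39 and -0.23), nor Cep44, on chromosome 8, with the shift subtracted (-0.10).

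Among 19 further genes of the pericentriolar material 3 fell (15.8%) and none rose in limma, with 1 higher at an unadjusted p under 0.05. Genes above the median level, where 15 of the 19 lay, had 12.7% higher and 9.21% lower. Pcm1, the scaffold of centriolar satellites, fell by 0.77 ± 0.12 and passed in every omission of an array; it lies on chromosome 8, and with that chromosome's shift subtracted it differed by -0.43 (limma adjusted p = 0.0627). The satellite protein Cep131 fell by 0.51 and lies on chromosome 11. Its call was lost with the shift subtracted (-0.21) and on omission of diploid replicate 3 and of haploid replicate 2 or 3 (limma adjusted p = 0.0541 to 0.0754). Cep41 fell by 0.50, but passed in no omission of an array other than that of diploid replicate 1 (limma adjusted p = 0.0658 to 0.141 in the others), and it differed by -0.25 when its probe sets were averaged. Its second probe set differed by -0.65 (limma adjusted p = 0.016 over all probe sets), and its dimmer ones by -0.02 and 0.16. The gamma-tubulin ring genes Tubgcp4, Tubgcp5, Tubgcp6 and Mzt1 did not pass, with differences of -0.37, -0.003, 0.19 and -0.02. Tubg2 and Mzt2 did not pass either, with differences of 0.29 and 0.02. The list also held Azi2, an adaptor of a signalling kinase that has no established place there and did not pass.

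Genes that work beside the centrosome in spindle assembly moved in both directions. Of 16 genes 2 rose (12.5%) and 3 fell (18.8%), beside 12.7% and 9.21% of genes above the median level, where all 16 lay. The kinase Aurka rose by 0.47 ± 0.08, from 11.33 to 11.80, but not on omission of diploid replicate 2 or 3 and of haploid replicate 2 (limma adjusted p = 0.0539 to 0.0624). The average of its 2 probe sets differed by -0.23, where the second was dim, with a mean of 5.48 beside 11.57. The microtubule-binding protein Map4 rose by 0.65, but not without diploid replicate 2 or 3 (limma adjusted p = 0.0676 and 0.0752), and its averaged probe sets differed by 0.43 (0.0932). Ckap2l, a spindle pole protein, fell by 0.97 ± 0.12 (0.55 when its probe sets were averaged) and the hyaluronan receptor Hmmr, which also acts at spindle poles, by 0.58 ± 0.09, and both passed in every omission of an array. Hmmr, on chromosome 11, differed by -0.29 with the shift subtracted (limma adjusted p = 0.0663). The microtubule polymerase Ckap5 fell by 0.43, but not on omission of diploid replicate 2 or 3 and of haploid replicate 2 or 3 (limma adjusted p = 0.0647 to 0.0977). It differed by -0.03 when its probe sets were averaged. Tpx2, which activates Aurka on the spindle, differed by -0.02, and Plk1, the kinase that matures centrosomes, by 0.43 (limma adjusted p = 0.0889).

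Cell cycle markers were read because transcripts of many centrosome genes rise towards mitosis. Of 11 markers of the time before and in mitosis 2 rose (18.2%) and none fell in limma, with 2 lower at an unadjusted p under 0.05. Genes above the median level, where all 11 lay, had 12.7% higher and 9.21% lower. The risers were Cdk1 by 0.41 and Cdc20 by 0.33, while Ccna2 differed by 0.02. Cdk1 passed in no omission of an array other than that of diploid replicate 1, and Cdc20 in none (limma adjusted p = 0.0825 to 0.123 and 0.0696 to 0.124). Of 12 markers of S phase 3 fell in limma and none rose, with 2 higher at an unadjusted p under 0.05. The fall was 0.59 for Mcm5, 0.57 for Cdt1 and 0.47 for Cdc6. Mcm5 did not pass without diploid replicate 3 (limma adjusted p = 0.055) or without its _x_at probe set (-0.38), and Cdc6 passed without haploid replicate 1 only (0.0754 to 0.123 without the others). These 3 lie on chromosomes 8 and 11 and did not pass with the shifts subtracted (-0.24, -0.23 and -0.17). Of 7 tubulin genes 1 fell (14.3%), beside 9.21% of genes above the median level, where all 7 lay. This gene, Tubb2b, fell by 0.33, but in no omission of an array (limma adjusted p = 0.0618 to 0.125). The part of the cell cycle in the values of the 30 genes was not tested.

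The promoter table held 30 windows for 24 of the 30 genes, some of them overlapping windows of the same gene. TTTGAA was in 26.7% of these windows, beside 17.9% of the 32851 windows of all genes. Its genes were Cdk5rap2, Cep55, Odf2, Poc5 and Sass6, and the same site of Odf2 and of Cep55 was counted in several overlapping windows. CCAAT was in 53.3% beside 37.4%, and GCGGGAA in 33.3% beside 4.6%. The CCAAT of Odf2 and both motifs of Cep57 were also counted in more than a single window. No match of a motif overlapped a match of another. Among the 4 genes that rose, each with a window, 3 had CCAAT and none GCGGGAA or TTTGAA. Among the 4 that fell and have a window, 2 had TTTGAA, 1 had CCAAT and 1 had GCGGGAA. Among the 16 that did not pass, 8 had GCGGGAA, 9 CCAAT and 3 TTTGAA, so the motif that stood furthest above its share in all windows was found mostly in genes that did not pass. A match is a description of the letters in this window and not evidence of binding.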

How the data were processed

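RNA of 6 mouse ES cell samples was hybridised to Affymetrix arrays, each sample to its own. Per the submitters' processing notes the deposited log2 values were made with RMA; no version or settings of it are stated there. The table held 45101 probe sets, and its 64 control probe sets entered no test. GEO's platform annotation gave 34945 probe sets a single symbol, 932 several and 9160 none, and the last 2 kinds were not named. Chromosomes came from RefSeq (GRCm38.p6) through Entrez numbers. The number of arrays limits the precision.

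Groups came from the labels. Differences were tested with limma 3.58.1 in R 4.3.3 (lmFit, eBayes, two-sided, no covariate) over 18193 genes at an adjusted p of 0.05. All 30 genes could be named. Of other lists, up to 4 that passed in each direction with the largest change were named. Tubgcp4, Tubgcp5, Tubgcp6, Tubg2, Mzt1, Mzt2, Tpx2, Plk1, Ccna2, Sox2, Zfp42, Lum and Azi2 were named after their values were seen. Members and lists were chosen with earlier results of these data known. A chromosome's shift is the median difference of its genes above the median level minus that of autosomal genes, subtracted from the haploid arrays. Promoter windows were searched as printed; in 1627 of 1627 overlapping pairs on opposite strands the letters matched as reverse complements. The steps were tested on simulated data. Alternatives were omission of each array, chromosome shifts subtracted, array weights, a 2-fold threshold, another quantile normalization, aligned medians, a test of bright genes only, averaged probe sets, probe sets tested singly, no _x_at or _s_at probe sets, and eBayes with trend and robust.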

Additional observations from a re-analysis of the deposited data

How the results depend on the processing

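No paired analysis was possible because the titles of the haploid samples carry line names and no replicate numbers that match those of the diploid samples. Of 463 values of 29 of the 30 genes under the alternatives, 410 kept direction and side of the threshold, 44 no longer passed and 9 turned sign, all 9 in genes that did not pass. Stil, at 0.00, had no direction to keep and lay between -0.078 and 0.073. With a 2-fold threshold 1 gene was higher and 0 lower in limma (7 were lower at an unadjusted p under 0.05 with no such threshold), with chromosome shifts subtracted 1 was higher, and with the mean of probe sets 3 were lower. Omitting an array gave 1 to 3 higher and 0 to 5 lower, while the called share of all genes ran from 5.33% to 13.3%. Of further centrosome genes, higher calls were 5 with array weights and 0 at 2-fold, and 1 to 4 on omission of an array; lower calls were 1 at 2-fold, 4 with shifts subtracted and 3 to 7 on omission. The mean difference of augmin was 0.051 after quantile normalization, 0.20 with the mean of probe sets and 0.033 with shifts subtracted; the cause was not tested. Signs turned with the mean of probe sets for Cep192 (0.073), Haus2 (0.17) and Aurka (-0.23), with the shift subtracted for Tubgcp3 (0.16), and on omission of an array for Cep152 (-0.027 to 0.207), Cenpj (-0.189 to 0.018), Pcnt (-0.128 to 0.004), Tubgcp2 (-0.004 to 0.169) and Haus1 (-0.25 to 0.011). The averages for Cep192 and Aurka took in dim probe sets, with means of 4.47 and 5.48 (log2). Each group had 3 arrays, which limits all of these values.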
